A study of Mus musculus with 617 samples.

Results

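Embryonic stem (ES) cells of the mouse can be held in a naive state, close to the inner cell mass of the blastocyst, by the medium called 2i, which contains an inhibitor of MEK and an inhibitor of GSK3 beside the cytokine LIF. MEK inhibition silences the ERK pathway that drives exit from naive pluripotency, and GSK3 inhibition stabilises beta-catenin and so relieves repression by the factor Tcf7l1. Serum with LIF keeps the cells pluripotent while ERK is active, and Activin A with FGF2 holds them in a primed state that resembles the epiblast after implantation. Many genes that stand out in 2i culture are known mainly from other tissues, and whether cells of the blastocyst carry them too is the question followed here.

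The 7 genes described are Crxos, Srarp, Tnni1, Pgc, Ffar3, Mymx and Pla2g1b, among 43628 gene IDs in each table. They were chosen by symbol, for high levels in 2i or for loss on leaving the naive state, so their levels in ES cells and their falls from 2i to serum, to primed cells or to differentiated cells are descriptions and carry no test. Crxos was known first as a homeobox gene beside the photoreceptor gene Crx, Srarp codes for a steroid receptor associated regulatory protein, and Ffar3 codes for a receptor of short-chain fatty acids. Tnni1 codes for the slow skeletal muscle form of the inhibitory troponin, and Pgc codes for progastricsin, a pepsinogen of the stomach. Mymx codes for myomixer, a small membrane protein needed for the fusion of myoblasts, and Pla2g1b codes for the secreted phospholipase A2 of the pancreas.

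RNA was measured in 617 single mouse cells with SMART-seq2, in 13 groups. A female and a male ES cell line from a cross of a C57BL/6J mother with a CAST/EiJ father were each sampled in 2i with LIF (60 female and 51 male cells), in serum with LIF (68 and 52), as epiblast stem cells in Activin A and FGF2, labelled Epi (79 and 63), and after differentiation through embryoid bodies with retinoic acid and the smoothened agonist SAG, labelled motor neuron (39 and 35). The labels state that this differentiation also yields several kinds of interneuron. A second female Epi culture of 7 passages gave 41 cells. Blastocysts of the same cross gave 23 cells labelled E3.5 ICM (inner cell mass) and 23 labelled E4.5 epiblast, and E5.5 embryos of pure C57BL/6J parents gave 20 female and 63 male cells labelled epiblast. The values are FPKM, a level per transcript length and sequencing depth. The cells of a line in a medium were averaged and taken as 1 sample, with the lines as replicates and the second female Epi culture kept apart. The labels do not say how many dishes or embryos lie behind a group.

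The median cell of a group had between 8122 and 10840 genes at 1 FPKM or more, with the lowest medians in the E3.5 cells (8122) and the E4.5 cells (8754). The FPKM sum of a cell had a median of 908253 in female 2i cells, 612768 at E3.5 and 511794 at E4.5, and 1 E3.5 cell reached 7897578. The 4 tables were normalised separately, so a difference between blastocyst cells and cultured cells includes any difference in processing. The first female Epi culture went with its label in part: Zfp42, a marker of naive cells, averaged 72.5 FPKM there, against 77.03 in female serum cells, 0.069 in male Epi cells and 0.117 in the culture of 7 passages. Its 15 naive genes had a median sum of 448 FPKM, against 492 in female serum and 37.4 in male Epi cells, while its 10 primed genes had one of 437, against 246.35 and 561. Cells labelled E4.5 epiblast went against their label. Of 8 trophectoderm genes, all 8 were at 1 FPKM or more in most of the cells, Cdx2 was so in 20 of 23 cells, and the summed level ran from 6.36 to 3234 FPKM with a median of 1251. Krt18 is counted both in this trophectoderm sum and in that of the 10 primed genes. At E3.5 Cdx2 was at 1 FPKM or more in 13 of 23 cells and the sum had a median of 183.5 FPKM. Nanog and Pou5f1 were at 1 FPKM or more in all 23 cells of both stages. Values for blastocyst cells are therefore given over all cells and over those whose trophectoderm sum was under 100 FPKM (11 at E3.5 and 7 at E4.5), a split chosen after these values had been seen. Cells under that cut also carried the primitive endoderm genes Gata6 and Sox17. These were at 1 FPKM or more in 11 and 7 of the 11 cells at E3.5 and in 4 and 2 of the 7 at E4.5. Over all cells the summed level of 8 primitive endoderm genes had a median of 124.6 FPKM at E3.5 and 106.6 at E4.5.

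Of the 7 genes, 5 were at a high level in 2i and close to 0 in serum (Crxos, Srarp, Tnni1, Pgc and Ffar3), while Mymx and Pla2g1b were high in both media. The proximal promoters of 4 genes are shown because they stand for these patterns. Crxos and Srarp had the most similar profile over the 8 cultures of the first table of any of the 21 pairs, Pgc stands for the genes of digestive glands, and Pla2g1b for those kept in serum. They come from RefSeq on GRCm38.p6 and run 5′ to 3′ from 250 bases before to 50 bases after a start. Capitals mark matches to 7 short motifs searched on both strands, and 6 of the 7 genes had an entry, with 9 starts in all.
Crxos, start 3 of 3, chr7:15901396-15901695, plus strand: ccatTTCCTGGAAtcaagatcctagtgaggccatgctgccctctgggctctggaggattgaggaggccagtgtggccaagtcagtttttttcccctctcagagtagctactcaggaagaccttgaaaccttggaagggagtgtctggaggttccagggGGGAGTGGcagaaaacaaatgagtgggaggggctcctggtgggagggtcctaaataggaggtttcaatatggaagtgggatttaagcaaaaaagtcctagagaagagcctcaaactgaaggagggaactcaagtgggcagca
Srarp, chr4:141436056-141436355, minus strand: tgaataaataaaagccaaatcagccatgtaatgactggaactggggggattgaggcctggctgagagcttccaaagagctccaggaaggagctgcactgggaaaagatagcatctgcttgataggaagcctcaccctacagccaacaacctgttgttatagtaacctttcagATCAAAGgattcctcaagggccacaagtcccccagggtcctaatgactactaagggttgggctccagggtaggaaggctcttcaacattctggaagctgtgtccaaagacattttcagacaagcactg
Pgc, chr17:47726592-47726891, plus strand: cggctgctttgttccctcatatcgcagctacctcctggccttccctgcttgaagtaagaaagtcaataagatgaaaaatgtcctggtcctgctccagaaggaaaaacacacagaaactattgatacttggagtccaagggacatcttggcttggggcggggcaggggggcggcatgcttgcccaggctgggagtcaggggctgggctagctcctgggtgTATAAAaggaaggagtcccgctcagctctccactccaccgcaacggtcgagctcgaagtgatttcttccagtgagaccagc
Pla2g1b, chr5:115465892-115466191, plus strand: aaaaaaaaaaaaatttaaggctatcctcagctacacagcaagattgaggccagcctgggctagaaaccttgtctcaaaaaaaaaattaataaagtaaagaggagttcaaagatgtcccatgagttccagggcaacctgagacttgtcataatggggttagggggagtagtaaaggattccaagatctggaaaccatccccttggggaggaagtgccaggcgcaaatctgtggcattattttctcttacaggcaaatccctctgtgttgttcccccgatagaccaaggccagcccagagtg
In the Crxos window the capitals are the Stat3 motif TTCCNGGAA, which is the same on both strands and whose first base lies at -246 from the start, and the Klf motif GGGNGTGG at -92. Stat3 carries the signal of LIF. Of 32851 promoters of the same length, 1.148% held the Stat3 motif and 17.62% the Klf motif. The Srarp window held the Tcf motif ATCAAAG at -78, found in 3.729% of promoters, and the Pgc window held TATAAA at -31, found in 13.62%. Both starts of Tnni1 shared 1 Klf match, and the windows of Ffar3, of Pla2g1b and of the first and second starts of Crxos held none of the 7 motifs, the others being TCAAGGTCA, ATTTGCAT and CATTGTT. The 9 windows had between 0 and 9 CpG dinucleotides, against a median of 7 over all promoters. A match is a description of letters, and no factor's binding was measured.

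Crxos (ENSMUSG00000074365, GRCm38 chr7:15882617-15904020) was the member that blastocyst cells shared most plainly with 2i cells, and it was higher there. Its mean was 62.1 ± 33.9 FPKM (SD over 60 cells, 6.83 to 161.98, median 55.1) in female 2i cells and 76.99 ± 30.4 (51 cells, 11.1 to 156.8, median 73.2) in male 2i cells. In serum the mean was 0.593 FPKM in female and 0.258 in male cells, with 7 of 68 and 4 of 52 cells at 1 FPKM or more. At E3.5 every one of 23 cells had it, from 276.5 to 655 FPKM with a mean of 448 ± 107.5 (SD), and the lowest of these lay above the highest 2i cell. At E4.5 it was again in 23 of 23 cells (95% exact Clopper-Pearson interval 85.2 to 100%), at 456 ± 230 FPKM and from 40.96 to 884. At E5.5 it was listed at 0 in all 20 female cells and reached 1 FPKM in 1 of 63 male cells. The blastocyst mean was 7.22 times the female and 5.82 times the male 2i mean at E3.5, and with every cell rescaled to the same FPKM sum the ratios were 9.86 and 8.23. There is 1 sample per stage, so these ratios carry no test.

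At E4.5 the level of Crxos differed between cells with and without trophectoderm genes within 1 leading title number. The numbers that open the titles of blastocyst cells are not explained in the labels. Of the 7 cells under number 9, the 4 with a trophectoderm sum of 6.36 to 61.97 FPKM had Crxos at 40.96 to 115.9 FPKM, and the 3 with a sum of 1440 to 1677 had it at 429 to 595. The 2 cells under number 6 also had low trophectoderm sums, 25.5 and 46.4 FPKM, with Crxos at 740 and 590 FPKM. Over all E4.5 cells the mean of Crxos was 276.2 FPKM in the 7 cells under 100 FPKM of trophectoderm genes and 535 in the 16 others. At E3.5 the same means were 396 (11 cells) and 496 (12 cells). Spearman's rho between Crxos and the trophectoderm sum was 0.54 at E3.5 and 0.45 at E4.5. Each is over 23 cells of 1 group with unequal numbers of detected genes, and is given as a description.

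**Figure D1:**
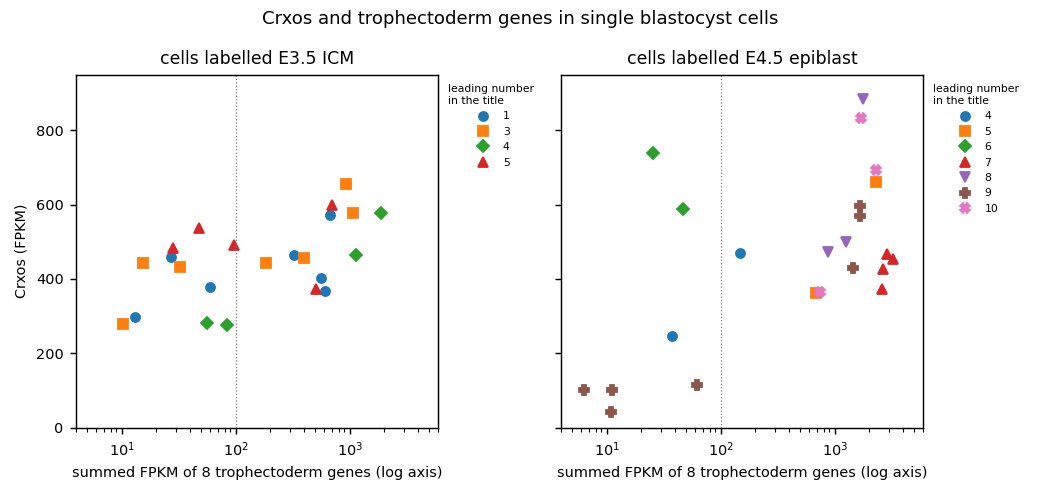
Crxos in FPKM (linear axis) against the summed FPKM of 8 trophectoderm genes (log axis) in single cells labelled E3.5 ICM (left) and E4.5 epiblast (right); symbols are the leading numbers of the sample titles and the dotted line is a sum of 100 FPKM. Every cell has Crxos, and the 4 lowest E4.5 cells, from 40.96 to 115.9 FPKM, all carry number 9 and lie left of the line.

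Srarp (ENSMUSG00000070637, chr4:141432672-141436105) was found in 2i and blastocyst cells as Crxos was, but its mean was lower in blastocyst cells than in 2i. Its mean was 32.4 FPKM in female 2i cells (10.3 to 88.7, median 31.02) and 48.9 in male 2i cells (16.1 to 140.9, median 44.2). In serum it was 0.302 and 0.450 FPKM, and no serum cell of a line reached the lowest 2i cell of that line. It was at 1 FPKM or more in 19 of 23 E3.5 cells (82.6%, interval 61.2 to 95.05%), with a mean of 14.5 ± 14.6 FPKM, and in 18 of 23 E4.5 cells (78.3%, 56.3 to 92.5%), with a mean of 8.68 ± 7.47. The E3.5 mean was 0.448 times the female and 0.297 times the male 2i mean, and the E4.5 mean 0.268 and 0.177 times. With rescaled cells the ratios were 0.587 and 0.408 at E3.5 and 0.491 and 0.342 at E4.5, and they carry no test. Among the cells with low trophectoderm sums Srarp was in 7 of 11 at E3.5 and 3 of 7 at E4.5. Among the others it was in 12 of 12 and 15 of 16. It was listed at 0 in all 83 E5.5 cells.

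Ffar3 (ENSMUSG00000019429, chr7:30854330-30856178) was the weakest of the genes in 2i and the only one not detected in every 2i cell. Its mean was 7.19 FPKM in female 2i cells (0 to 40.2, median 5.08) and 10.49 in male 2i cells (0 to 52.1, median 6.48), with 45 of 60 and 36 of 51 cells at 1 FPKM or more. In serum it was listed at 0 in all 68 female cells and reached 1 FPKM in 1 of 52 male cells. At E3.5 it was in 15 of 23 cells (65.2%, interval 42.7 to 83.6%), and at E4.5 in 6 of 23 (26.1%, 10.2 to 48.4%). The means over all 23 cells were 5.29 and 1.505 FPKM. The intervals of both stages, which cover counting of cells only, overlap. The order of the means, but not of the medians (1.61 FPKM at E3.5 and 0 at E4.5) or the shares, turned in cells low in trophectoderm genes. In those, Ffar3 was in 6 of 11 cells at E3.5 (mean 1.99 FPKM) and 2 of 7 at E4.5 (mean 2.72, highest cell 13.1). In the others it was in 9 of 12 (8.32) and 4 of 16 (0.972). The E3.5 cells with Ffar3 had a median of 8840 detected genes against 7806 in those without. All 83 E5.5 cells were at 0.

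Tnni1 (ENSMUSG00000026418, chr1:135779434-135810989) was in every 2i cell and at or near 0 in blastocyst cells. In 2i its mean was 102.8 FPKM in female (37.2 to 210, median 99.7) and 92.1 FPKM in male cells (8.77 to 215, median 85.8). In serum the means were 0.964 and 0.340 FPKM, with 6 of 68 and 2 of 52 cells at 1 FPKM or more. None of 23 E3.5 cells reached 1 FPKM, which allows a share of up to 14.8% (exact Clopper-Pearson interval), and the highest had 0.204 FPKM. At E4.5 the highest of 23 cells had 1.71 FPKM and was the only one above 1. None of the 7 E4.5 cells low in trophectoderm genes had any. At E5.5 it was in 8 of 20 female cells (mean 2.82 FPKM) and 17 of 63 male cells (mean 2.49 FPKM). So the order by mean was 2i, then motor neuron male (5.13 FPKM), Epi male (3.26) and E5.5, with E3.5 and E4.5 cells at the bottom.

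Pgc (ENSMUSG00000023987, chr17:47726842-47734482) was in every 2i cell, at a mean of 56.6 FPKM in female (20.5 to 113.1, median 54.9) and 44.2 in male cells (10.9 to 97.9, median 43.01). In serum it stayed detectable, with means of 1.07 and 1.97 FPKM and 13 of 68 and 16 of 52 cells at 1 FPKM or more. Blastocyst cells had little of it: the mean was 0.823 FPKM at E3.5, with 5 of 23 cells at 1 FPKM or more (21.7%, interval 7.46 to 43.7%). The E4.5 mean was 2.81 FPKM, with 14 of 23 such cells (60.9%, 38.5 to 80.3%). At E4.5, 12 of the 14 cells with Pgc were among the 16 with high trophectoderm sums, where its mean was 3.75 FPKM, against 0.674 in the 7 others. Over the 23 E4.5 cells, Spearman's rho of Pgc was 0.605 with the primitive endoderm sum and 0.434 with the trophectoderm sum. At E3.5 these were -0.0035 and 0.166, all given as a description. At E5.5 Pgc was in 14 of 20 female and 14 of 63 male cells, with means of 4.57 and 0.640 FPKM. Summed trophectoderm RNA, which includes the primed gene Krt18, was also higher in female E5.5 cells (median 384 FPKM, range 124.03 to 857, with 7 of 8 genes detected in most cells). Male ones had a median of 183.1 (range 83.3 to 571, 5 of 8). The primitive endoderm sum had a median of 171.4 FPKM in female and 69.3 in male cells. Within each sex, cells with Pgc had more primitive endoderm RNA (medians 202.3 against 107.4 in female, 110.1 against 66.2 in male cells). They also had more trophectoderm RNA (383.7 against 312.1, and 242.5 against 175.4). The part of either list in the Pgc difference was not tested.

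Mymx (ENSMUSG00000079471, chr17:45600971-45602102) did not separate 2i from serum. Its mean was 79.03 FPKM in female 2i cells (12.8 to 163.7, median 76.7) and 170 in male 2i cells (50.3 to 361, median 162.01). In serum it was 74.1 in female (0 to 337, median 51.3) and 206 in male cells (0 to 973, median 168.3). The log2 change from 2i to serum was -0.09 in the female and 0.28 in the male line, and the spread between cells was wider in serum, where 11 of 68 female cells lacked it. It was at 1 FPKM or more in 12 of 23 E3.5 cells (52.2%, interval 30.6 to 73.2%; mean 10.7 FPKM) and 17 of 23 E4.5 cells (73.9%, 51.6 to 89.8%; mean 17.2), and in 2 of 20 female and 3 of 63 male E5.5 cells. At E4.5 it was in 6 of 7 cells with low trophectoderm sums and in 11 of 16 others. The means over the 7 and over the 16 were 20.96 and 15.5 FPKM.

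Pla2g1b (ENSMUSG00000029522, chr5:115466262-115474722) had the highest level of the 7 in cultured ES cells and was low in blastocyst cells. Its mean was 318 FPKM in female 2i cells (88.7 to 625, median 298.9) and 461 in male 2i cells (117.8 to 1023, median 464). In serum it was 313.6 FPKM in female (0 to 911) and 333 in male cells (2.91 to 843), in 65 of 68 and 52 of 52 cells. At E3.5 the mean was 2.23 FPKM with 6 of 23 cells at 1 FPKM or more, and at E4.5 it was 3.98 FPKM with 6 of 23 cells (26.1%, interval 10.2 to 48.4% at both stages). In cells low in trophectoderm genes it was in 3 of 11 at E3.5 (mean 2.90 FPKM) and 1 of 7 at E4.5 (mean 1.87), and in the others in 3 of 12 (1.61) and 5 of 16 (4.90). The highest blastocyst cell had 40.4 FPKM, below the lowest 2i cell. At E5.5 it was in 16 of 20 female cells (mean 29.4 ± 28.1 FPKM) and 54 of 63 male cells (mean 32.9 ± 30.1). Those means were 13.2 and 14.7 times the E3.5 mean and 7.38 and 8.26 times the E4.5 mean, and with rescaled cells 7.23 and 8.55 times and 6.00 and 7.10 times. E5.5 cells had more detected genes than blastocyst cells (medians of 10840 and 10590 against 8122 and 8754) and came from another cross, and the part of either in this difference was not tested.

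**Figure D2:**
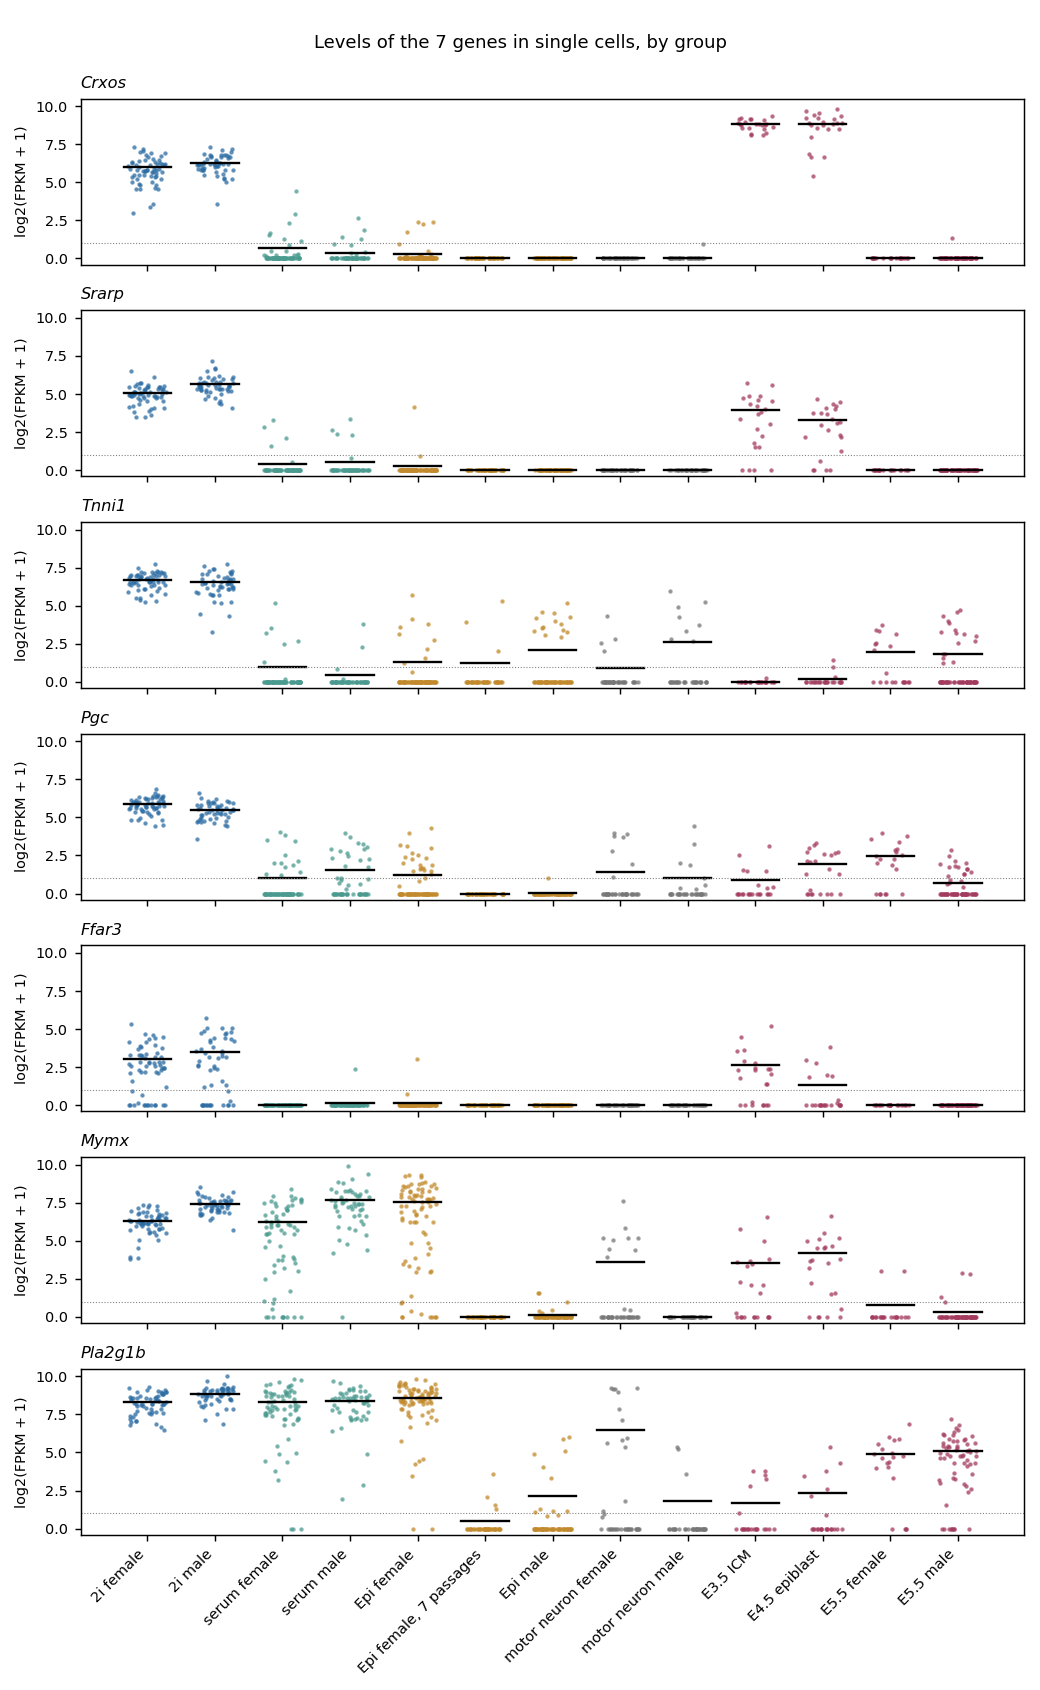
Level of each of the 7 genes as log2(FPKM + 1) in every cell (points) of the 13 groups, with a bar at log2(group mean FPKM + 1) and a dotted line at 1 FPKM. Crxos is high in 2i and higher at E3.5 and E4.5, while Srarp is high in 2i and lower at E3.5 and E4.5. Tnni1 is high in 2i cells, and Mymx and Pla2g1b in 2i, serum and the first female Epi culture.

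Counted per cell, the 5 genes lost in serum were present together in 2i and in part in blastocysts. They were grouped by their levels in these same 2i and serum cells, so the counts there follow from that choice. All 60 female and 51 male 2i cells had at least 4 of the 5 at 1 FPKM or more, and 45 and 36 had all 5. No serum cell had more than 3, and 44 of 68 female and 31 of 52 male serum cells had none. Every blastocyst cell had at least 1, since Crxos was in all 23 cells of both stages. The median was 3 of 5 at both stages, with 4 of the 5 in 4 of 23 E3.5 and 3 of 23 E4.5 cells. Within 2i the levels of most pairs of the 7 genes were weakly related from cell to cell. Over 21 pairs Spearman's rho ran from -0.30 to 0.36 (median 0.05) in female cells and from -0.18 to 0.46 (median 0.11) in male cells. The highest value in each line was that of Crxos with Tnni1. These rho values are descriptions across cells of 1 culture.

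**Figure D3:**
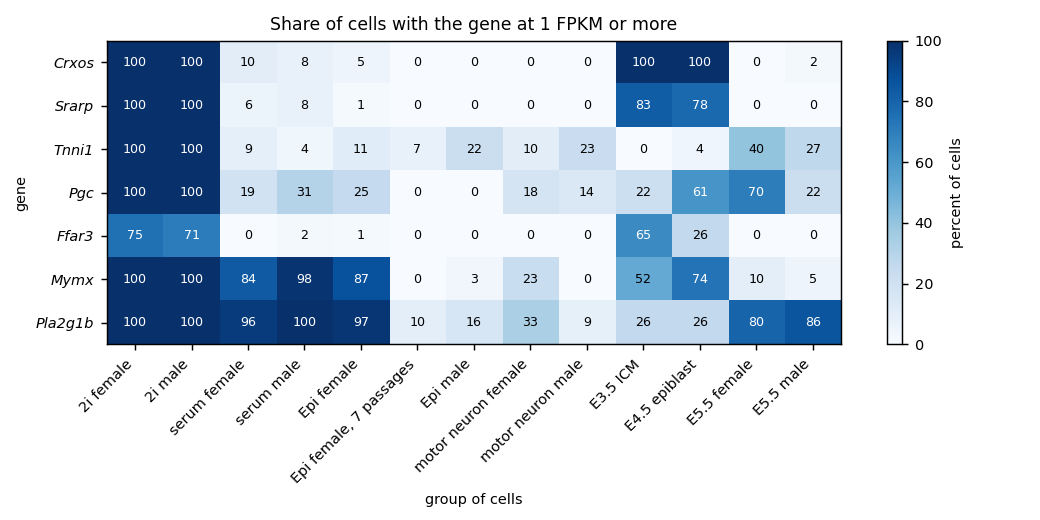
Percent of cells with each gene at 1 FPKM or more (shade and number) for the 7 genes in the 13 groups. The shares are 100 for Crxos at E3.5 and E4.5, 83 and 78 for Srarp, and 0 and 4 for Tnni1.

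Mymx and Pla2g1b were near 0 only in some of the states that follow serum. In the first female Epi culture, the one that kept Zfp42, their means were 183.5 and 390 FPKM, with 69 and 77 of 79 cells at 1 FPKM or more. Of the other genes, Pgc was at 1 FPKM or more in 20 of those 79 cells, Tnni1 in 9, Crxos in 4 and Srarp and Ffar3 in 1 each. In male Epi cells Mymx and Pla2g1b averaged 0.091 and 3.40 FPKM, with 2 and 10 of 63 cells at 1 FPKM or more. In the female Epi culture of 7 passages, Mymx was listed at 0 in all 41 cells. Pla2g1b averaged 0.432 FPKM over the 41, with 4 cells at 1 FPKM or more. Crxos, Srarp, Pgc and Ffar3 were each at 0 in every cell of that culture. Tnni1 averaged 1.38 FPKM over the 41, with 3 cells at 1 FPKM or more. From serum to Epi the log2 change of Mymx was 1.297 in the female and -7.57 in the male line, and that of Pla2g1b was 0.31 and -6.25. In that comparison limma called 0.0387% of 15504 genes, 0.0322% higher and 0.00645% lower, and it used the falls that chose both genes, so nothing is read from it.

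**Figure D4:**
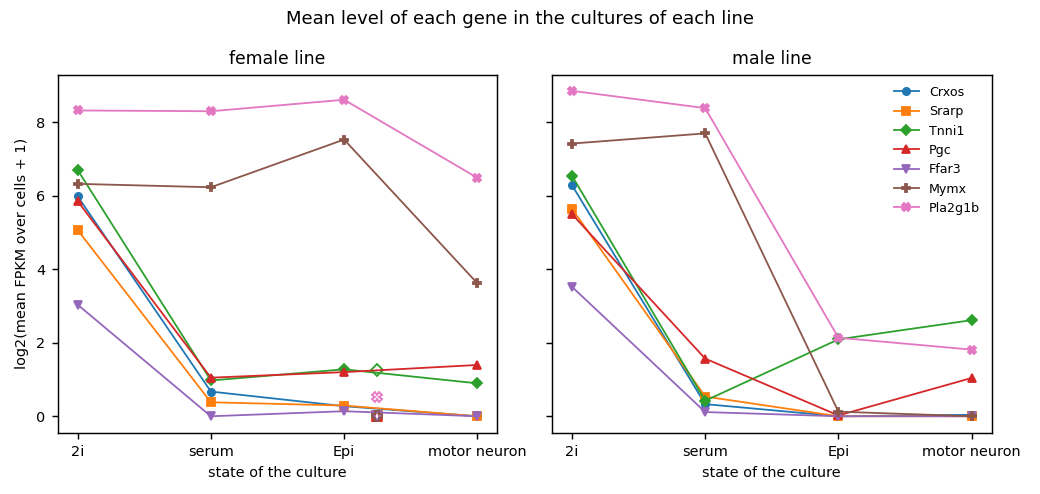
Mean level of each gene over the cells of a culture, as log2(mean FPKM + 1), in 4 states of the female line (left) and the male line (right); open symbols beside Epi are the female culture of 7 passages. Mymx and Pla2g1b are high in the first female Epi culture and low in the 7-passage and male ones.

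In cells labelled motor neuron both genes were found mainly in female cells that kept Pou5f1, a core pluripotency factor. Of 39 female cells, 17 had Pou5f1 at 1 FPKM or more. Pla2g1b was in 10 of those 17 cells and in 3 of the 22 others. Its means over the 17 and over the 22 were 197 and 5.37 FPKM, against 88.8 FPKM over all 39. Mymx was in 7 of the 17 and in 2 of the 22 others, with means of 22.98 FPKM over the 17 and 2.247 over the 22. Male cells, of which 2 of 35 had Pou5f1, had Mymx at 0 in every cell. Pla2g1b averaged 2.51 FPKM over the 35, with 3 cells at 1 FPKM or more. Crxos, Srarp and Ffar3 reached 1 FPKM in none of the 74 cells of either line.

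**Figure D5:**
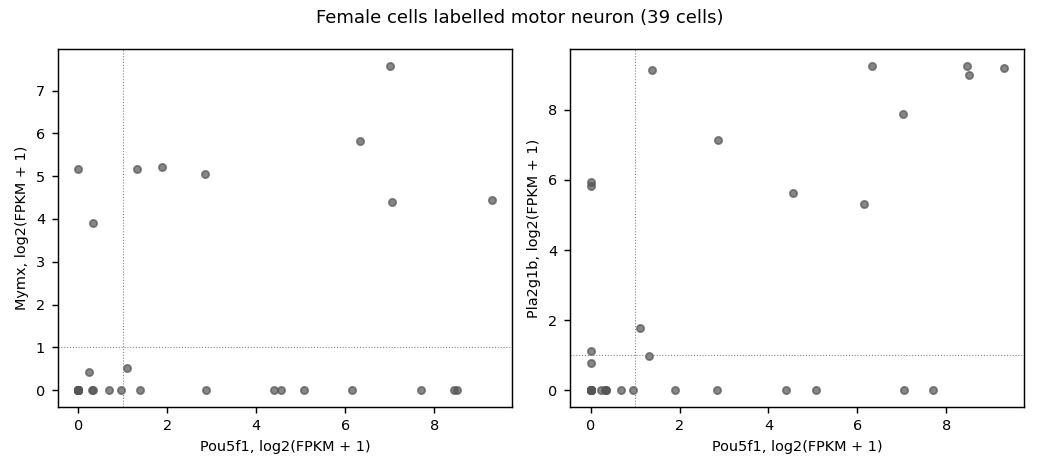
Mymx (left) and Pla2g1b (right) against Pou5f1 in the 39 female cells labelled motor neuron, each as log2(FPKM + 1); dotted lines mark 1 FPKM. Of 17 cells right of the vertical line, 7 had Mymx and 10 had Pla2g1b.

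Tnni1 and Pgc were also found in some motor neuron cells. Tnni1 averaged 0.861 FPKM in the female line (4 of 39 cells) and 5.13 in the male line (8 of 35), against 0.964 and 0.340 in serum, and so was higher in 1 of 2 lines. Its low serum level was part of its choice, so the comparison carries no test. Pgc averaged 1.63 and 1.06 FPKM, with 7 and 5 cells at 1 FPKM or more. Over all genes, limma called 30.1% of 15504 higher in motor neuron than in serum cultures and 2.7% lower (32.8% in all; called means a change of at least 1 on the log2 scale with an adjusted p under 0.05), with a median log2 change of 0.706. With each cell rescaled to the same sum the median was 0.137 and the share of calls that were higher was 69%, against 91.8%. These cultures also held RNA of primitive endoderm genes: Gata6, a factor of that lineage, was at 1 FPKM or more in 20 of 39 female and 23 of 35 male cells. Pgc was in 6 of the 20 female cells with Gata6 and 1 of the 19 without, and in 5 of 23 and 0 of 12 male cells. Tnni1 was in 1 of 20 and 3 of 19 female cells, and in 7 of 23 and 1 of 12 male cells. The part of primitive endoderm in the values of Tnni1 and Pgc was not tested.

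The media are described with lists of ERK targets, Wnt targets, naive genes and primed genes. The lists were chosen with earlier results of these data known, so their directions are not an independent check of the media. Lef1 is in both the Wnt and the primed list. From 2i to serum, limma called 1 of 15504 genes higher and 2 lower, Crxos and Srarp, which is 0.00645% and 0.0129% (0.0193% in all). With the line as a block neither was called. That comparison chose the members, so nothing is read from it for them. None of the genes in these lists was called. With log2 values averaged over cells, 4 naive genes and 3 Wnt targets were called lower and 2 ERK targets higher, and 1 ERK target was called with no filter, with a filter of 5 FPKM and with rescaled cells. In the first fit 1549 of all genes had an unadjusted p under 0.05. Of 13 ERK targets and feedback genes 12 had a positive change, with a median log2 of 1.56 and 8 at an unadjusted p under 0.05: Dusp6, a phosphatase that limits ERK, changed by 4.23 (SE 0.50, adjusted p = 0.064) and Etv4, an ERK target, by 3.67 (SE 0.32, adjusted p = 0.0529). Of 9 tested Wnt targets 8 had a negative change (median -2.90, 4 at an unadjusted p under 0.05), among them Axin2, a feedback gene of the pathway, at -3.12 (SE 0.63, adjusted p = 0.152) and Cdx1 at -3.75 (SE 0.50, adjusted p = 0.0778). Of 15 naive pluripotency genes 13 had a negative change (median -1.26, 4 at an unadjusted p under 0.05), with Tfcp2l1 at -3.56 and Tbx3 at -2.85, and all 10 primed genes had a positive one (median 1.59, 5 such). The median over all tested genes was 0, with 7.21% at -1 or lower and 7.02% at 1 or higher. Averaging log2 values over cells put 7 of 10 primed genes above 0 in place of 10, with a median of 0.62, and the medians of the 4 lists kept their sign under that averaging and under rescaling.

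Few genes of the tissues for which the members are known were found beside them in 2i cells. Crx, the photoreceptor gene that lies 2649 bases from Crxos, was at 0 in every 2i culture and blastocyst stage. Of 10 photoreceptor genes, 1 averaged 1 FPKM or more in each 2i culture, and none was at that level in most 2i cells. None passed the filter of a mean of 1 FPKM over all cultures. Mymk, which codes for the partner of myomixer in fusion, was at 0 in both 2i cultures, as were Myod1 and Myog, the factors of muscle differentiation. These were the only 3 of 10 skeletal muscle genes at 0 in every 2i cell. Of the 10, 1 averaged 1 FPKM or more in female and 2 in male 2i cells. In blastocyst cells Myod1 was at 1 FPKM or more in 16 of 23 cells at E3.5 (mean 4.20 FPKM) and 5 of 23 at E4.5 (mean 3.63 FPKM), and Myog was at 0. Of the other troponins, Tnni2 averaged 0 and 0.179 FPKM, Tnni3 5.90 and 4.55, Tnnc1 0.885 and 0.712, and Tnnt1 11.8 and 21.6 FPKM in female and male 2i cells. None of 10 gastric gland genes averaged 1 FPKM in 2i, and the related pepsinogen Pga5 was at 0.845 and 0.014 FPKM there. In motor neuron cultures Pga5 averaged 58.4 FPKM in female and 585 in male cells, where Pgc itself was at 1.63 and 1.06. Among pancreatic genes, the protease Cela1 averaged 1.12 and 2.15 FPKM in 2i. The digestive enzymes Pnlip, Cel, Prss2, Cpb1 and Amy2a5 and the factor Ptf1a were at 0 in both 2i cultures. Among other secreted phospholipases, Pla2g10 was at 3.53 and 6.28 FPKM in 2i and 37.5 and 54.9 in serum, with 23.2 FPKM at E3.5 and 29.7 at E4.5, where Pla2g1b was at 2.23 and 3.98.

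No annotated gene overlapped any of the 7, and some neighbours shared part of the pattern. Ffar2, another receptor of short-chain fatty acids 30555 bases from Ffar3, averaged 5.97 and 2.33 FPKM in female and male 2i cells, 0.187 and 0.060 in serum and 1.33 at E3.5. Ffar1, only 1212 bases away, was under 0.2 FPKM in every group. Tfeb, a regulator of lysosome genes 2548 bases from Pgc, went from 30.2 and 24.5 FPKM in 2i to 12.2 and 6.20 in serum, and was at 25.1 and 27.7 FPKM at E3.5 and E4.5, where Pgc was at 0.823 and 2.81. Lad1, beside Tnni1, went from 18.8 and 29.5 to 6.59 and 5.96 FPKM. Slc29a1, a nucleoside transporter 1365 bases from Mymx, was at 164.7 and 206 FPKM in 2i and 253.8 and 351.8 in serum.

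The genes whose profile over the 8 cultures was most like a member's were ranked by Pearson's r of log2(mean FPKM + 1) among tested genes that averaged 5 FPKM or more in 2i. For Crxos they were Srarp (r = 0.998), Mir1929 (0.996) and Ffar3 (0.995). For Tnni1 they were Smkr-ps (0.981), Sh2d4b (0.976) and Aspscr1 (0.973), and for Pgc Fancm (0.986), Ppp1r14d (0.986) and Cdx2 (0.980). The genes most like Srarp were Crxos, Ffar3 (0.998) and Mir1929, and those most like Ffar3 were Gm24323 (0.999), Mir1929 (0.999) and Srarp. For Mymx they were Zfp989 (0.995), 2410141K09Rik (0.992) and Platr12 (0.986), and for Pla2g1b Noxred1 (0.993), Inpp5d (0.989) and the gene ID ENSMUSG00000086967 (0.993). Over all 13 groups, r with Crxos was 0.896 for Srarp, and r with Pgc was 0.410 for Cdx2, which averaged 48.6 FPKM in the E4.5 cells. Such r values rest on few cultures that differ mostly between 2i and the rest. The members were chosen for high 2i levels or later loss, and the ranking took only genes at 5 FPKM or more in 2i. High r values, also those between members, follow in part from these choices and are a description.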

How the data were processed

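Single-cell SMART-seq2 profiles were available as 4 tables of FPKM for 617 cells in 13 groups. Per the submitters' processing notes, reads were handled with STAR 2.4.1, Cufflinks and Cuffnorm 2.2.1 on mm10. The deposited FPKM values were used unchanged except that 356 very small values (at most 9.7552e-05 FPKM) had a misprinted exponent and were read as small numbers. Each table was normalised separately, and no read depth can be had from FPKM, so intervals cover counting of cells only. Of 43628 gene IDs, 42462 had a symbol.

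The 7 genes and all lists were chosen with earlier results of these data known. The other genes named are those of the lists, the nearest annotated gene on each side of a member, and the 3 genes most like each member over the cultures. A cell was counted as having a gene at 1 FPKM or more, and shares have 95% exact Clopper-Pearson intervals. Means are over all cells of the named group, with those that lack the gene included. For cultures, cells were averaged to 1 value per line and medium, since a culture's cells do not replicate it. The 8 cultures of the first table were compared with limma 3.58.1 in R 4.3.3 on log2(mean FPKM + 1), with a trend in the variance, for the 15504 genes averaging 1 FPKM or more, and p-values were adjusted by Benjamini-Hochberg. Called means a change of at least 1 on the log2 scale with an adjusted p under 0.05. Fold changes on this scale understate those of low genes. The lines are the replicates, and p-values measure only the spread between them. The same 2 lines run through all media, so the line pairs the cultures. The correlation of the lines' deviations between media was 0.061 to 0.163 over 15504 genes. Blastocyst and E5.5 groups are 1 sample each and have no test. In simulated cultures with 200 changed genes of 15504, the serum against 2i fit recovered 67% of those changed by 3 on the log2 scale and 0% of those changed by 1.5. At a change of 3 it also made 8 false calls. The changed genes were drawn from those with a mean of at least 2 on the log2 scale, and the cultures were drawn without pairing by line. The recovery therefore does not cover genes of low mean level. Alternatives were another pseudocount, other filters, averaging of log2 values, rescaling of cells to a sum of 1000000, the line as a block, runs of title numbers, other detection thresholds and leaving out each culture. Alternatives chosen after seeing the data used only blastocyst cells low in trophectoderm genes and only female motor neuron cells without Pou5f1. One gene of the pancreatic list is not reported here. Coordinates are from GENCODE vM21 on GRCm38. Tables and plots were made with Python 3.11.15, pandas 2.3.3, scipy 1.17.1 and matplotlib 3.10.9.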

Additional observations from a re-analysis of the deposited data

Results flagged for a closer look

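The female and male line moved in opposite directions in 7 comparisons, each with 1 culture per line and medium, so the difference between lines was not tested. From 2i to serum, Mymx changed by -0.09272 in the female and 0.2764 in the male line on the log2(mean FPKM + 1) scale. From serum to Epi, Mymx changed by 1.297 and -7.57 and Pla2g1b by 0.3124 and -6.245. Those are the comparisons with the first female Epi culture, in which Zfp42 was kept, and with the culture of 7 passages in its place the female changes were -6.23 and -7.78. Pgc changed by 0.1512 and -1.546 and Ffar3 by 0.1375 and -0.1144 from serum to Epi, both at levels under 2 FPKM. From serum to motor neuron cells, Tnni1 changed by -0.07781 and 2.193 and Pgc by 0.3456 and -0.5272.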

How the results depend on the processing

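Serum against 2i gave 1 gene higher and 2 lower. The counts were 0 and 0 with a pseudocount of 0.1, 5 and 22 with no filter, 11 and 213 with log2 values averaged over cells, 4 and 7 in the higher run of title numbers, and 33 and 81 with the Epi culture of 7 passages. The higher count was 2 with a filter of 5 FPKM and 2 with rescaled cells. Leaving out 1 culture gave 0 to 8 higher and 0 to 30 lower, with the most without either Epi culture. Shares of tested genes are given for the other comparisons. Epi against serum gave 0.0322% higher and 0.00645% lower. Higher calls were 0.0236% with no filter, 0.0301% with a filter of 5 FPKM and 0.0193% with averaged log2 values. The lower and higher runs of title numbers gave 0.00653% and 0.013% higher and 0% and 0.013% lower, and the Epi culture of 7 passages gave 2.94% and 2.55%. Leaving out 1 culture gave 0 to 1.34% higher and 0 to 0.832% lower, with the most without the first female Epi culture. Motor neuron against serum gave 30.1% higher and 2.7% lower. The shares were 16.6% and 5.51% with averaged log2 values and 14.2% and 6.36% with rescaled cells, 11.1% higher and 0.629% lower with no filter, and 4.55% lower with the 7-passage culture. Leaving out 1 culture gave 9.97 to 32.4% higher and 0.574 to 4.51% lower, with the fewest higher without the female serum culture and the fewest lower without the male one. With the line as a replicate block, pairing the cultures, serum against 2i gave 0 genes in each direction, Epi against serum 0.00645% higher, and motor neuron against serum 31.6% higher. The causes of these shifts were not tested. At 5 FPKM, shares were 0% for Tnni1 at E4.5, 4.35% and 30.4% for Pgc at E3.5 and E4.5, and 26.1% for Ffar3 at E3.5. Rescaled means were 660 (E3.5) and 814.8 (E4.5) for Crxos and 17.2 (E4.5) for Srarp. In E4.5 cells low in trophectoderm genes, shares were 42.9% for Srarp, 28.6% for Pgc and 0% for Tnni1. The log2 changes of Crxos, Srarp, Tnni1, Pgc and Ffar3 from 2i to serum were negative in every alternative.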
